A study of Sus scrofa with 6 samples.

Results

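The miR-15/16 family is a group of conserved miRNAs, most of which share the bases at their 5′ end by which a miRNA recognises its target messages. All 8 porcine names set for it, of 453 miRNAs in the table of follicular fluid small extracellular vesicles (s-EVs), were found by name, namely ssc-miR-15a, ssc-miR-15b, ssc-miR-16, ssc-miR-195, ssc-miR-497, ssc-miR-424-5p, ssc-miR-503 and ssc-miR-424-3p (written without the prefix for pig from here on), the last being the passenger arm of the miR-424 hairpin. Fluid was aspirated from individual follicles (2 to 6 mm in the sample labels, a narrower range in the paper's methods) of prepubertal Landrace × Large White gilts, and was pooled by the quality of the oocyte it had surrounded. LQ pools came from follicles whose oocyte took up lissamine green B, a dye that enters cells with damaged membranes. HQ pools came from follicles whose oocyte stayed unstained. Each group had 3 pools, described as biological replicates, and all s-EVs were isolated with the same column kit. The sources used here do not give the follicles or animals per pool, so the p-values measure the spread between these pools.

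Members of this family are best known as brakes on cell division. Several of them bind messages of D-type and E-type cyclins, of the kinase CDK6 and of the survival factor BCL2, and so can hold cells before DNA replication or favour apoptosis. In human chronic lymphocytic leukaemia the locus of miR-15a and miR-16 is often deleted, and in cattle miR-424 and miR-503 have been linked to the proliferation of granulosa cells, the cells that line the follicle.

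Mature sequences of 5 members were matched by name to the RefSeq annotation of Sscrofa11.1, the build the authors mapped to. They are shown because the shared seed is what makes these miRNAs a family and because only bases outside it can tell their reads apart. Capitals mark the seed (bases 2 to 8).
miR-16: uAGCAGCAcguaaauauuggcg
miR-195: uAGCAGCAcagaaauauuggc
miR-15a: uAGCAGCAcauaaugguuugu
miR-15b: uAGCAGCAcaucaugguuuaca
miR-497: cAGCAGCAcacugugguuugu
miR-103: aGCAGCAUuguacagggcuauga
miR-107: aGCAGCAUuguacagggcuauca

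The 5 members had the same seed, AGCAGCA, which pairs with the site UGCUGCU in a message. Of 367 listed miRNAs with a matched sequence, 5 (1.36%) had this seed, all of them members. The 86 listed miRNAs without a matched sequence, miR-424-5p, miR-503 and miR-424-3p among them, were not searched. Whether these 3 members carry the same seed is therefore not shown here. The letters AGCAGC were searched on the given strand of the mature sequence within bases 1 to 8, and 7 miRNAs (1.91%) held them. The other two were miR-103 and miR-107, where the letters start at base 1 instead of base 2 and the seed is GCAGCAU. Outside the seed, miR-16 and miR-195 had 2 mismatches over the 21 bases compared from the 5′ end, and miR-15a and miR-15b had 3 over 21. Whether reads of miR-16 were counted for the far less abundant miR-195 was not checked, which leaves the values of miR-195 less certain. miR-103 and miR-107 differed at 1 of 23 bases, so reads of either could have been counted for the other, which makes each value uncertain.

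The 5 matched members lie in short clusters, in which neighbours are cut from a shared primary transcript. miR-15a (chr11:17757474-17757494, + strand) and a first copy of miR-16 (chr11:17757614-17757635, + strand) are separated by 119 bases between annotated genes. miR-15b (chr13:100083191-100083212, + strand) and a second copy of miR-16 (chr13:100083336-100083357, + strand) are separated by 123 bases within an intron of SMC4, which encodes a condensin subunit that packs chromosomes in mitosis. Reads of miR-16 cannot be assigned to either copy. miR-195 (chr12:52422083-52422103, − strand) and miR-497 (chr12:52422381-52422401, − strand) are separated by 277 bases within an intron of the long non-coding RNA gene LOC102161115, on the same strand.

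The deposited values are TMM-adjusted CPM, that is, read counts scaled to a common library size after correction by the trimmed mean of M-values (TMM). A read covers a whole mature miRNA, so the values are not divided by length. In every library the values were whole numbers of equal steps (within 6.66e-05 of a step), and with a step taken as 1 read the libraries held 898530 to 3159116 miRNA reads in LQ and 1643814 to 2057437 in HQ. LQ replicate 1 was the shallowest, with 1.23 CPM per step. Across the 309 miRNAs whose LQ or HQ mean exceeded 1 CPM, Pearson's r between log2 values was 0.974 to 0.991 within LQ, 0.982 to 0.985 within HQ and 0.958 to 0.973 between an LQ and an HQ library, across miRNAs that are not independent replicates. In pooled vesicles, fewer vesicles of a source and less of a miRNA per vesicle cannot be told apart.

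ssc-miR-16, the most abundant member and a restrainer of cyclins, reached 102384, 109948 and 134400 CPM in LQ replicates 1 to 3, against 63217, 65586 and 58105 CPM in HQ replicates 1 to 3. Every LQ library stood well above every HQ library, and the HQ libraries lay close together. It was the second most abundant miRNA of the table by its LQ mean (rank 2) and the fifth by its HQ mean (rank 5).

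The family was ordered alike in both groups. ssc-miR-497 followed miR-16 at 5329 ± 1738 CPM in LQ and 2911 ± 535 CPM in HQ (SD, n = 3 each). Then came miR-195 and miR-15a, with means of 2261 and 1674 CPM in LQ and 1872 and 1041 CPM in HQ. Below them stood miR-15b, miR-424-5p and miR-503, at 536, 362 and 41.3 CPM in LQ and 403, 167 and 29.8 CPM in HQ. Neighbours in this order did not overlap between libraries of a group, except miR-15b and miR-424-5p in LQ, where the lowest miR-15b value (377 CPM) lay below the highest miR-424-5p value (403 CPM). Even there miR-15b was the higher of the pair in all 3 libraries.

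**Figure D1:**
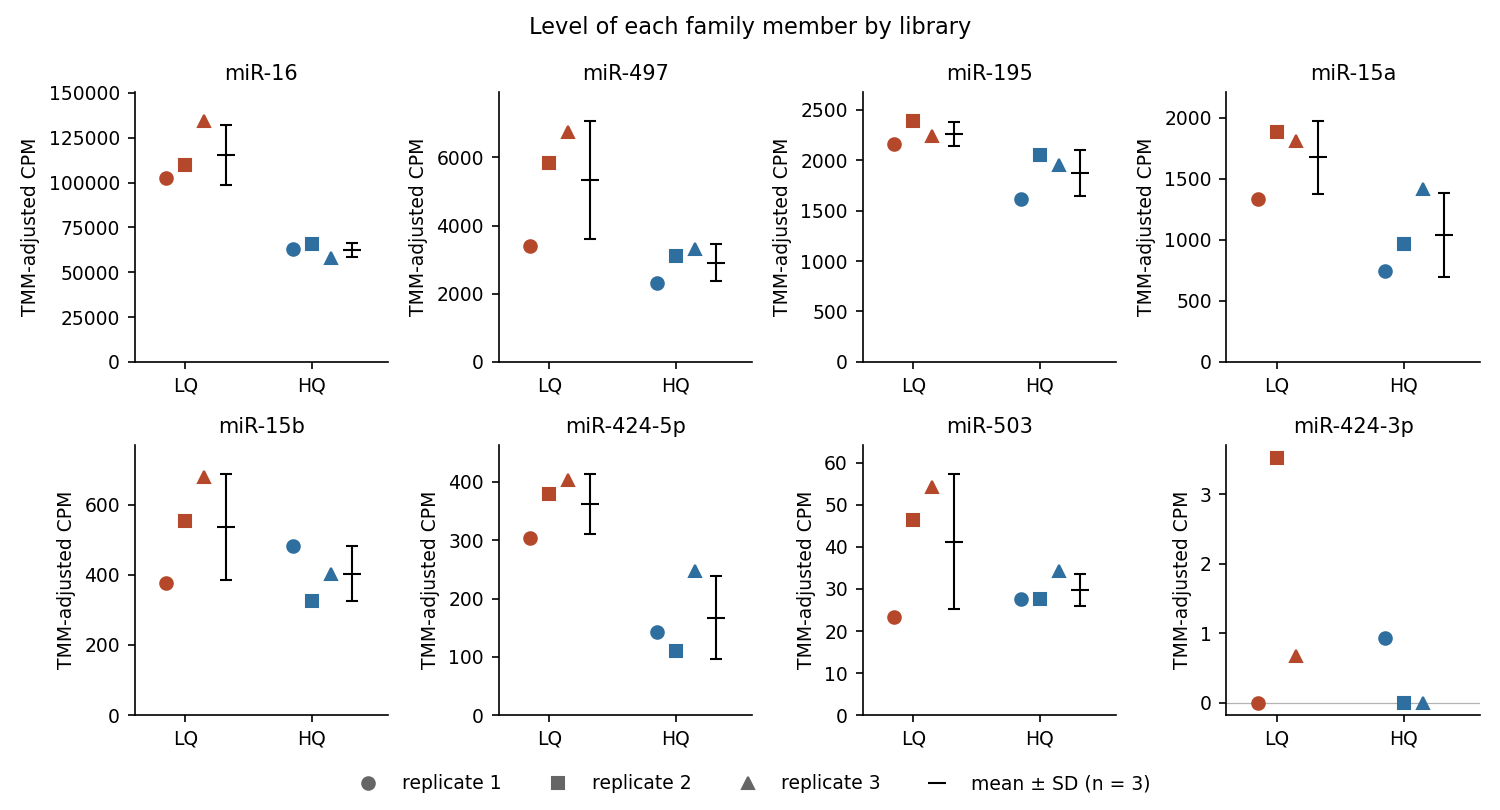
Level of the 8 members in TMM-adjusted CPM (vertical axes, each on its own linear scale) in the 3 LQ and 3 HQ libraries. Symbols give the replicate and bars the mean ± SD, not drawn for miR-424-3p, and LQ points lie above all HQ points for miR-16, miR-497, miR-195 and miR-424-5p.

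Summed over the members, the family held 9.96%, 11.7% and 13.6% of the CPM of LQ replicates 1 to 3, against 7.22%, 7.89% and 6.98% in HQ replicates 1 to 3. The lowest LQ share was thus above the highest HQ share. miR-16 alone made up 91.9% ± 1.14 of the family in LQ and 90.6% ± 1.77 in HQ (SD, n = 3 each). Without it, the other members held 0.758%, 1.2% and 1.27% of the remaining CPM in LQ and 0.599%, 0.776% and 0.837% in HQ, and there LQ replicate 1 fell among the HQ libraries. These shares do not depend on how the libraries were scaled to each other.

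**Figure D2:**
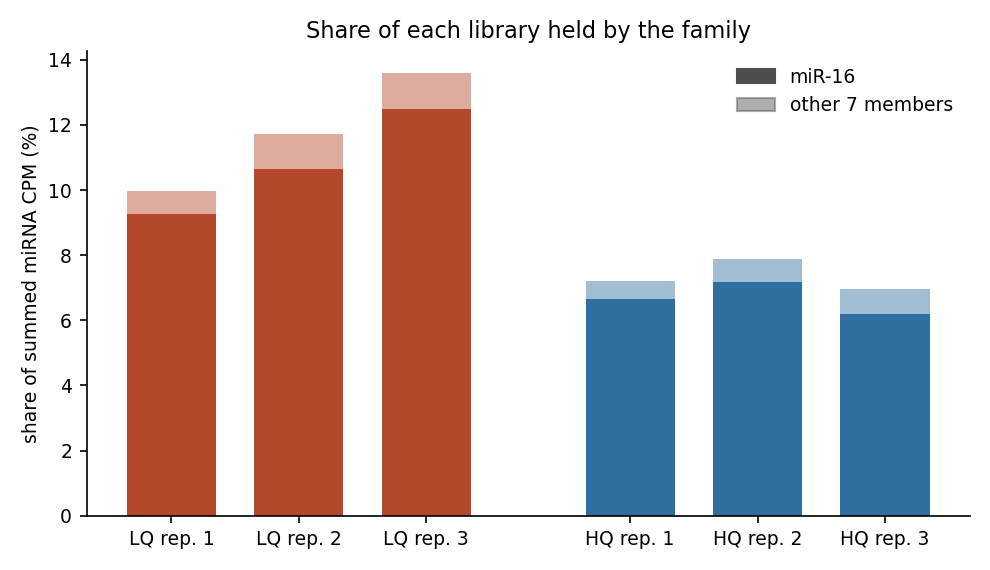
Share of the summed miRNA CPM of each library (vertical axis, %) held by miR-16 (solid) and by the other 7 members (pale). The bars reach 9.96% to 13.6% in LQ and 6.98% to 7.89% in HQ, and miR-16 fills most of every bar.

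Whether the members differed between LQ and HQ was tested with limma on log2(CPM + 0.5) over the 309 miRNAs, two-sided, with Benjamini-Hochberg adjustment over all of them. A log2 difference is LQ minus HQ throughout, and the pseudocount makes it smaller for low miRNAs. Of the 8 members, 4 were higher in LQ at an adjusted p under 0.05 (miR-16, miR-497, miR-424-5p and miR-15a), 0 were lower and 4 did not pass. Among all 309 miRNAs, 14.9% were higher in LQ, 11.7% were lower and 26.5% passed in either direction by the same test. With libraries scaled to equal sums of CPM the balance turned, with 27 of 87 calls higher in LQ, and 2 members passed (miR-16 and miR-424-5p). The 4 did not all rest on equally firm values. Under the exclusion of 1 library at a time, miR-16 passed in 6 of 6 fits, miR-424-5p in 5, and miR-497 and miR-15a in 2 each. With a variance prior that had no trend, miR-16 alone passed (adjusted p = 0.0474 from limma), and miR-424-5p had an adjusted p of 0.0622. The number of calls among all miRNAs also depended on the libraries, with 82 in the full set, 29 without HQ replicate 2 and 109 without LQ replicate 1. The 7 members other than miR-424-3p all had a positive log2 difference, with a median of 0.72, while the median of all tested miRNAs was -0.08 and 46.3% of them were positive.

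miR-16 had a log2 difference of 0.88 (standard error 0.170, adjusted p = 0.00207 from limma), with a 95% confidence interval of 0.53 to 1.24. Its adjusted p stayed between 0.00153 and 0.0177 when any 1 library was left out. It also passed under all 12 other planned settings, with log2 differences of 0.69 to 0.93, where miR-424-5p passed in 9 of the 10 that could be fitted, miR-497 in 9 of 12 and miR-15a in 5 of 12.

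miR-424-5p had the largest difference of the 7. This guide arm has been reported to restrain the cell cycle in some cell types of other mammals, together with its cluster mate miR-503. It stood at 305, 379 and 403 CPM in LQ replicates 1 to 3, against 143, 111 and 247 CPM in HQ replicates 1 to 3. The groups did not overlap, although HQ replicate 3 came near LQ replicate 1. The log2 difference was 1.19 (standard error 0.284, adjusted p = 0.00504 from limma), with a 95% confidence interval of 0.59 to 1.78. It was the single member to pass the thresholds the study sets for differential expression. These ask for a fold of 2 beside the adjusted p of 0.05 and for more than 5 CPM on average in the higher group. Of all tested miRNAs, 7.44% passed them with higher values in LQ. The paper already reports miR-424-5p as lower in HQ from these same libraries, and reports no other member as differentially expressed. Without HQ replicate 2 the log2 difference was 0.93 and the adjusted p was 0.0634.

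miR-497, which in mice keeps muscle stem cells quiescent together with miR-195, stood at 3394, 5839 and 6755 CPM in LQ replicates 1 to 3, against 2304, 3119 and 3310 CPM in HQ replicates 1 to 3. In TMM-adjusted CPM the ranges touched closely, since LQ replicate 1 was just above HQ replicate 3, while LQ replicates 2 and 3 were far higher. LQ replicate 1 also had the higher sum of CPM (1103611, against 938323 in HQ replicate 3), so this order depends on the scaling. The log2 difference was 0.83 (standard error 0.251, adjusted p = 0.0202 from limma), and it no longer passed without HQ replicate 1 (adjusted p = 0.112), HQ replicate 2 (0.0805), LQ replicate 2 (0.0844) or LQ replicate 3 (0.0836). When the libraries were instead scaled so that their CPM had equal sums, it was 0.63 (adjusted p = 0.0719).

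miR-15a, known to target BCL2, stood at 1333, 1884 and 1805 CPM in LQ replicates 1 to 3, against 742, 961 and 1419 CPM in HQ replicates 1 to 3. The groups overlapped, because HQ replicate 3 exceeded LQ replicate 1. The log2 difference was 0.72 (standard error 0.254, adjusted p = 0.0434 from limma), close to the threshold. The call was lost without HQ replicate 1 (adjusted p = 0.205), HQ replicate 2 (0.145), LQ replicate 2 (0.170) or LQ replicate 3 (0.0898), and with equal sums of CPM (0.132), a pseudocount of 0.1 (0.0506) or no filter on low values (0.0531).

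**Figure D3:**
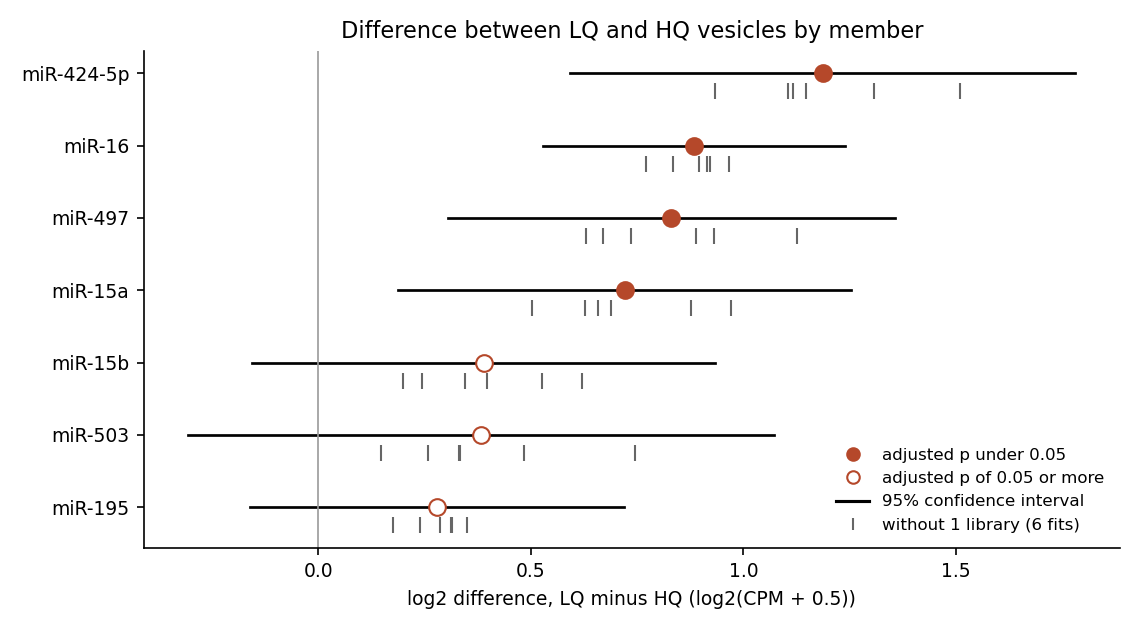
Log2 difference, LQ minus HQ (horizontal axis, log2(CPM + 0.5)), of the 7 members other than miR-424-3p, with 95% confidence intervals as lines, filled points where the adjusted p was under 0.05 and ticks for the fits without 1 library. miR-424-5p is at 1.19 and miR-195 at 0.28, and the intervals of miR-15b, miR-503 and miR-195 include 0.

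The remaining members did not pass. miR-195 stood at 2156, 2388 and 2240 CPM in LQ replicates 1 to 3, against 1610, 2050 and 1954 CPM in HQ replicates 1 to 3. Its groups did not overlap in TMM-adjusted CPM, yet the difference was small, at 0.28 (standard error 0.210, adjusted p = 0.333 from limma). It was 0.17 without HQ replicate 1 and 0.08 with libraries scaled to equal sums of CPM. Among all tested miRNAs, 22.7% likewise had every LQ library above every HQ library, as did 4 of the 8 members. In either direction, 43.7% had groups that did not overlap. These counts were made on TMM-adjusted CPM only. Its sum was higher in every LQ library (1033599 to 1103611) than in every HQ library (915120 to 948868).

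miR-15b stood at 377, 553 and 677 CPM in LQ replicates 1 to 3, against 481, 325 and 402 CPM in HQ replicates 1 to 3, and LQ replicate 1 lay among the HQ libraries. Its log2 difference of 0.39 had a 95% confidence interval of -0.16 to 0.93 (adjusted p = 0.269 from limma). It was 0.62 without LQ replicate 1, 0.20 without LQ replicate 3 and 0.24 without HQ replicate 2. miR-503 stood at 23.3, 46.3 and 54.2 CPM in LQ replicates 1 to 3, against 27.7, 27.6 and 34.2 CPM in HQ replicates 1 to 3. LQ replicate 1 was below all HQ libraries and the other LQ libraries were above them. The log2 difference was 0.38, with a 95% confidence interval of -0.31 to 1.07 (adjusted p = 0.404 from limma), and it was 0.74 without LQ replicate 1 and 0.15 without LQ replicate 3.

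miR-424-3p was at the limit of the measurement. It was listed at 0 in LQ replicate 1 and in HQ replicates 2 and 3, and its highest value, 3.53 CPM in LQ replicate 2, corresponds to 8 steps of that library. It entered the test through its LQ mean of 1.40 CPM and did not pass (adjusted p = 0.592 from limma), and no fold is given at this depth. Where both arms were above 0, the 5p arm exceeded the 3p arm by 108 times in LQ replicate 2, 591 times in LQ replicate 3 and 153 times in HQ replicate 1. The 3p arm was at 2 steps in LQ replicate 3 and at 2 steps in HQ replicate 1, so the size of these ratios is rough. The guide arm thus dominated the hairpin in each of these libraries.

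**Figure D4:**
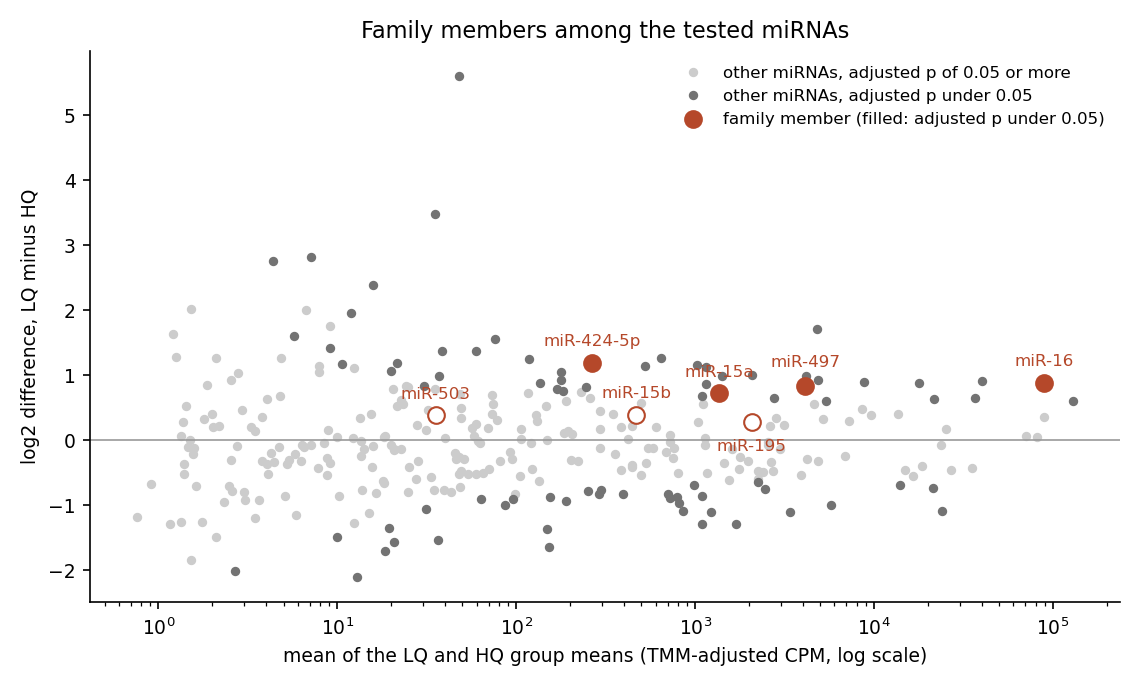
Log2 difference, LQ minus HQ (vertical axis), against the mean of both group means in TMM-adjusted CPM (horizontal axis, log scale) for the tested miRNAs, with the family in colour and miR-424-3p not drawn. The members span the range from 29.8 CPM to 115577 CPM in group means and all lie above 0, within the spread of the other miRNAs.

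The libraries nearest to the other group were not the same for all members. LQ replicate 1 was the lowest LQ library for each of the 8 members, and HQ replicate 3 was the highest HQ library for miR-15a, miR-497, miR-424-5p and miR-503, but the lowest for miR-16. HQ replicate 2 was the highest HQ library for miR-16 and miR-195, and HQ replicate 1 for miR-15b and miR-424-3p. When LQ replicate 1 and HQ replicate 3 were left out, an exclusion chosen after the values were seen, 5 members passed, with miR-503 as the fifth (log2 difference 0.85, adjusted p = 0.0340 from limma). For miR-503 these were the libraries nearest to the other group, so a wider difference was built into that exclusion. Among all 309 miRNAs, 125 passed in that fit, 67 of them higher in LQ, against 82 and 46 with all libraries.

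The ratio of cluster mates within a library was compared as well. miR-424 and miR-503, paired here because they are neighbours in other mammals, have no position given here, and miR-16 stands in both of its pairs with reads from both copies. This ratio is untouched by the scaling between libraries. Differences of log2 ratios were tested by a two-sided exact permutation test over the libraries, for which 3 against 3 cannot give a p below 0.1, with adjustment over 5 ratios. None of the 5 passed, as none could at this sample size.

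With all 6 libraries, the ratio of miR-424-5p to miR-503 differed most. miR-424-5p exceeded miR-503 by 13.1, 8.19 and 7.43 times in LQ replicates 1 to 3, against 5.17, 4.02 and 7.22 times in HQ replicates 1 to 3. All LQ libraries lay above all HQ libraries, with HQ replicate 3 just below LQ replicate 3, and the log2 ratio differed by 0.80 (exact permutation test, p = 0.1, adjusted 0.5). Its place at the top depended on the libraries. Without LQ replicate 1 it differed by 0.56 and the ratio of miR-497 to miR-195 by 0.81, and without HQ replicate 2 it differed by 0.60 and the ratio of miR-16 to miR-15b by 0.68.

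miR-497 exceeded miR-195 by 1.57, 2.45 and 3.02 times in LQ replicates 1 to 3, against 1.43, 1.52 and 1.69 times in HQ replicates 1 to 3. LQ replicate 1 lay among the HQ libraries, and the log2 ratio differed by 0.55 (exact permutation test, p = 0.2, adjusted 0.5) and by 0.34 without LQ replicate 3. miR-16 exceeded miR-15b by 272, 199 and 198 times in LQ replicates 1 to 3, against 131, 202 and 145 times in HQ replicates 1 to 3, with overlap and a difference of 0.49 (exact permutation test, p = 0.3, adjusted 0.5).

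miR-16 to miR-15a ratios mixed entirely between groups. They were 76.8, 58.4 and 74.5 in LQ replicates 1 to 3 and 85.2, 68.2 and 40.9 in HQ replicates 1 to 3, a log2 difference of 0.16 (exact permutation test, p = 0.8). Without HQ replicate 3 it was -0.14. The last ratio, of miR-424-5p to miR-424-3p, rests on the few reads of the passenger arm (log2 difference 0.28, exact permutation test, p = 0.8).

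**Figure D5:**
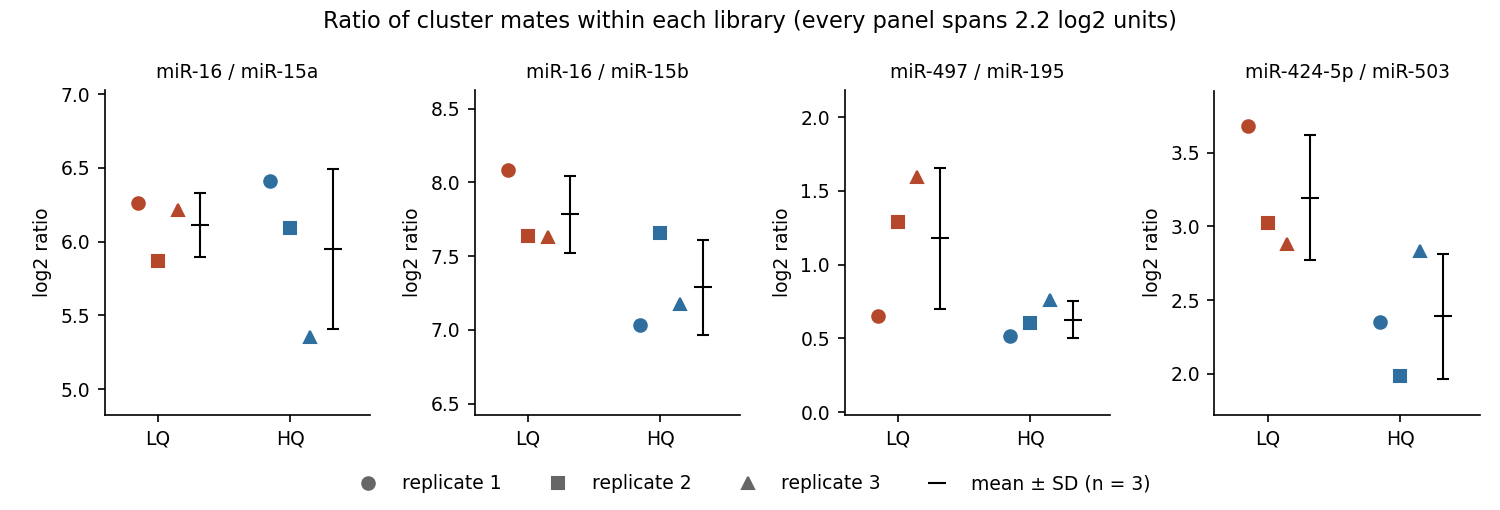
Log2 ratio of cluster mates within each library (vertical axes, each spanning the same number of log2 units) in LQ and HQ, with symbols for replicates and bars for mean ± SD. The LQ and HQ points separate for miR-424-5p to miR-503 and overlap for the other pairs.

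Base composition moved with the groups in these libraries. Deviations of a library from the mean of all libraries had a slope of -0.20 to -0.17 log2 units per 10 percentage points of GC content in LQ and of 0.06 to 0.25 in HQ, over 256 miRNAs with a sequence. The matched members ranged from 38.1% GC in miR-15a over 40.9% in miR-15b, 42.9% in miR-195 and 45.5% in miR-16 to 52.4% in miR-497, where the median of tested miRNAs was 47.8%. After each library's line on GC content was subtracted, miR-16 was at 0.77 (adjusted p = 0.00478 from limma) and miR-497, the most GC-rich, at 0.97 (adjusted p = 0.0125), so both still passed. miR-15a was at 0.34 and did not pass (adjusted p = 0.321), while miR-15b was at 0.11 and miR-195 at 0.07. The step subtracts whatever part of a difference runs along GC content, and that part was not traced further.

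miR-16 is also abundant in blood cells, so markers of other cell types were read beside it. Of 4 erythrocyte miRNAs, miR-451 rose, at 11.05, 21.2 and 12.9 CPM in LQ replicates 1 to 3 and 4.69, 7.12 and 6.85 CPM in HQ replicates 1 to 3 (log2 difference 1.18, adjusted p = 0.0403 from limma). miR-486 fell, at 67.6, 65.3 and 63.7 CPM in LQ and 140, 145 and 92.5 CPM in HQ (log2 difference -0.91, adjusted p = 0.0158 from limma). miR-185 did not pass (-0.14), and miR-144 was listed at 0 in all HQ libraries and reached at most 1.36 CPM in LQ. The erythrocyte list summed to 2567 to 3213 CPM in LQ and 2742 to 4024 CPM in HQ, and most of that sum was miR-185.

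Of 5 leukocyte miRNAs, 1 was higher in LQ, miR-142-5p (87.0 ± 31.6 CPM in LQ and 32.01 ± 4.33 CPM in HQ). The other 4 did not pass and had log2 differences of both signs, from -0.52 to 0.39. Among them was the other arm of the same hairpin, miR-142-3p, at 0.15. The list summed to 217 to 318 CPM in LQ and 193 to 213 CPM in HQ. Of 2 endothelial arms, miR-126-5p was higher in LQ (1587 ± 297 CPM in LQ and 718 ± 84.9 CPM in HQ) and miR-126-3p did not pass, and they summed to 1619 to 2149 CPM in LQ and 874 to 1062 CPM in HQ. miR-202, a miRNA typical of the gonads, was abundant in both groups, with 61414 to 76637 CPM over both arms in LQ and 40260 to 89364 CPM in HQ, and its less abundant arm, miR-202-3p, fell in LQ (log2 difference -0.83, adjusted p = 0.0287 from limma). Beside these counts, 14.9% of all tested miRNAs were higher in LQ and 11.7% were lower by the same test. The part of these markers in the differences of the family was not tested.

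miR-103 and miR-107, which carry the letters AGCAGC 1 base nearer to the 5′ end and sit in introns of the pantothenate kinase genes, showed no such difference past the test. miR-103 stood at 2385, 1911 and 1436 CPM in LQ replicates 1 to 3, against 2341, 2907 and 2556 CPM in HQ replicates 1 to 3 (log2 difference -0.47, adjusted p = 0.132 from limma). miR-107 stood at 287, 411 and 314 CPM in LQ and 181, 289 and 283 CPM in HQ (0.44, adjusted p = 0.210). Each overlapped between groups, and their log2 differences had opposite signs.

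Other miRNAs known to restrain cyclins and their kinases were counted beside the family. Of 12 listed, 11 were in the table, of which 2 were higher in LQ, 1 was lower and 8 did not pass, with a median log2 difference of -0.28 beside -0.08 for all tested. Among all tested miRNAs, 14.9% were higher in LQ and 11.7% were lower, so these few calls do not set the list apart. let-7i-5p stood at 26276 ± 3284 CPM in LQ and 16858 ± 498 CPM in HQ (0.63, adjusted p = 0.0152 from limma). miR-34c, which p53 induces, stood at 231 ± 50.6 CPM in LQ and 123 ± 34.6 CPM in HQ (SD, n = 3 each; 0.93, adjusted p = 0.0196 from limma). let-7a went the other way, at 16416 ± 5446 CPM in LQ and 26486 ± 3663 CPM in HQ (-0.74, adjusted p = 0.0213 from limma).

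The profile of miR-16 over the 6 libraries was compared with those of 135 other miRNAs with a mean above 100 CPM, by the root mean square distance of log2 values centred on their mean. The nearest 3 were miR-148a-3p (0.174), miR-140-5p (0.178) and let-7i-5p (0.178), against a median distance of 0.558. These 3 were taken for their small distances, so they lie below the median by choice. All 3 were, like miR-16, higher in LQ past the test. Choosing them by closeness to miR-16 over these same libraries favours that, so it is no separate result. Within the family, miR-497 was nearest to miR-16 (0.286), and miR-15b and miR-15a, the cluster mates of miR-16, were at 0.345 and 0.347. The distances of miR-195, miR-503 and miR-424-5p were 0.347, 0.405 and 0.426, and that of miR-424-3p was 0.997. All points share the same 6 libraries.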

How the data were processed

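Small RNA of s-EVs from 3 LQ and 3 HQ pools was sequenced with a QIAseq kit. According to the paper's methods, the authors trimmed reads, mapped them to Sscrofa11.1, annotated them against porcine miRBase in CLC Genomics Workbench and normalized by TMM. In the submitters' processing notes the tools named are Bowtie2 2.2.2, bcl2fastq and DESeq2, and which of these made the table is not settled here. The deposited table gives TMM-adjusted CPM, handled as a signal. The sources used here do not say whether molecular identifiers were used.

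Members and lists were chosen with earlier results of these data known. The 309 miRNAs averaging more than 1 CPM in LQ or HQ received an addition of 0.5 and a log2 transform. They were fitted by limma 3.58.1 (R 4.3.3) with a trended variance prior. The fit was tried on simulated data with the same dispersion for all miRNAs and no GC shift. That trial checks the code and does not measure the error rate in these libraries. The text names all 8 members, list members past the test, the 3 nearest profiles to miR-16 and other miRNAs with the letters AGCAGC. miR-185, miR-144, miR-142-3p and miR-126-3p, of the cell type lists, were also named after their values were seen. Sequences came from RefSeq for 367 miRNAs (347 by name, and 20 annotated without an arm, which was read from their place in the hairpin), which gave a GC content for 82.8% of tested miRNAs. Alternatives covered pseudocount, filter, variance prior, array weights, 3 scalings, GC content, a replicate block and leaving out libraries.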

Additional observations from a re-analysis of the deposited data

How the results depend on the processing

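Among all 309 miRNAs 82 passed, and 29 did when the variance prior had no trend, 29 to 109 with 1 library left out (29 without HQ replicate 2, 46 without LQ replicate 2, 48 without HQ replicate 1), and 125 without HQ replicate 3 and LQ replicate 1, an exclusion added after seeing the data. Of the members 4 passed, against 1 without the trend (miR-16), 2 with equal sums of CPM, 2 with equal sums outside the family, 2 of the 5 with a sequence after GC correction with or without the replicate block, and 1 to 4 with 1 library left out (1 without HQ replicate 2, 2 without HQ replicate 1 and likewise without either LQ replicate 2 or 3). Differentially expressed members numbered 1, against 0 without the trend, 0 with equal sums, 0 with GC correction, where miR-424-5p could not be fitted, 0 with GC correction and the replicate block, 2 with array weights, 3 without both named libraries and 0 to 2 without 1 library. Equal sums moved the median of all miRNAs by -0.18 and made 31.0% of the calls higher in LQ, against 56.1% with TMM scaling, and equal sums outside the family moved it by -0.11 (39.0%). The family share differed by 4.40 percentage points, 3.48 to 5.29 without 1 library, and by 0.338 points without miR-16. The log2 ratio of miR-16 to miR-15a ran from -0.14 to 0.39 without 1 library, and that of miR-424-5p to miR-424-3p from -0.31 to 1.04, and was -0.40 with a pseudocount of 0.1. The cause of these changes was not tested, except that fewer libraries and fewer miRNAs enter some fits.

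Replicate numbers are shared between the groups in the labels, but deviations from the group means of libraries with the same number had correlations of -0.04 to -0.01, so the numbers were not taken to pair the pools. With the replicate block 97 miRNAs and 4 members passed. Read-count tests were not run, because the steps of the values were not accepted as recovered reads. Depth limits miR-424-3p, where the highest value is 8 steps.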
